A study of Mus musculus with 6 samples.

Results

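Transcripts of lipogenesis and cholesterol synthesis were measured by RNA sequencing in tumours of the HCA-1 line, a mouse hepatocellular carcinoma line grown in the liver of male C3H mice. The set was given as a list of 31 gene symbols, 16 of fatty acid and triglyceride synthesis and 15 of sterol synthesis, and each was matched to the symbol column of the deposited table. All 31 were found, each under 1 Ensembl identifier, among 33296 genes with a count, and all 31 passed the filter on low counts, which left 17423 genes to test. There were 3 tumour libraries of mice given TSDP (TSDP 1, 2 and 5) and 3 of untreated mice (Control 3, 4 and 5), and the labels do not tie a library to a mouse. In the labels TSDP stands for treatment with a nanoparticle that carried DNIC and sorafenib, a kinase inhibitor used against hepatocellular carcinoma, and it went into a vein on 6 days, the first day 10 and the last day 23. All mice were 6 to 8 weeks old when 1000000 HCA-1 cells were placed under the liver capsule, and all tumours were taken on day 24. An empty carrier is not mentioned for the Control mice. HCA-1 is 1 line, and a tumour sample can hold hepatocytes of the host liver around it.

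Cells make palmitate from citrate: ATP citrate lyase releases acetyl-CoA, acetyl-CoA carboxylase turns it into malonyl-CoA, and fatty acid synthase builds the chain, which elongases and desaturases then modify and acyltransferases store as triglyceride. Cholesterol is built from acetyl-CoA by the mevalonate pathway through squalene and lanosterol. Both branches are controlled by the SREBP transcription factors, which SCAP carries out of the endoplasmic reticulum when sterols are low and which the INSIG proteins hold back. Liver makes much of the body's fat and cholesterol, and many hepatocellular carcinomas keep this programme.

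The libraries held 32130808 to 38953397 counts, and their content of hepatocyte RNA differed widely. The summed level of 14 hepatocyte markers, in CPM (counts per 1000000 on TMM-scaled library sizes), was 30402 CPM, 57008 CPM and 19129 CPM in TSDP 1, 2 and 5, against 98.0 CPM, 18655 CPM and 3644 CPM in Control 3, 4 and 5. All 14 had positive log2 fold changes (TSDP over Control), and none was at 0 in a library. For 11 of the 14 every TSDP library lay above every Control library, beside 13.9% of all genes tested. All 14 were lowest in Control 3 and highest in TSDP 2, beside 26.1% and 31.5% of all genes. None of the 14 passed the edgeR test or was called by DESeq2. Control 3 stood apart with almost no hepatocyte RNA, so results are also given without it. Of markers of the carcinoma, the keratins Krt8 and Krt18 were at 431 to 724 CPM in all libraries, and Afp and Gpc3 at 0.679 to 9.20 CPM. All 4 had positive log2 fold changes and were lowest in Control 3. Afp did not overlap, at 9.20, 5.73 and 4.24 CPM in TSDP 1, 2 and 5. In Control 3, 4 and 5 it was at 3.27, 3.53 and 3.68 CPM (adjusted p by edgeR = 0.353, by DESeq2 = 0.159). Gpc3, Krt8 and Krt18 overlapped between the groups. Adipocyte markers were at or near 0: the 4 found in the table, Adipoq, Plin1, Cidec and Cfd, summed to 0.362 to 1.20 CPM in TSDP and 0.149 to 0.958 CPM in Control. Of other cell types, all 3 endothelial markers (Pecam1, Cdh5, Kdr) and all 4 fibroblast markers (Col1a1, Col1a2, Pdgfrb, Dcn) had positive log2 fold changes and were highest in TSDP 2. Their summed levels were 185 to 285 CPM in TSDP and 120.5 to 192 CPM in Control for endothelium, and 2773 to 5397 CPM in TSDP and 2268 to 4249 CPM in Control for fibroblasts. Kdr (DESeq2 adjusted p = 0.042, edgeR 0.334) and the leukocyte marker Ptprc were higher in TSDP without overlap, and the 3 macrophage markers (Adgre1, Cd68, Csf1r) overlapped. The part of these cell types in the results was not tested. In such bulk samples fewer cells of a type and less RNA per cell cannot be told apart.

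Among the 31 members, several transcripts of desaturation, elongation and triglyceride assembly stood above every Control library in each TSDP library. The members that build palmitate, other than Me1, and the members that build cholesterol overlapped between the groups. Some other genes of both pathways, described below, did not overlap. Of the 16 fatty acid members 0 passed edgeR's quasi-likelihood test (Benjamini-Hochberg adjusted p below 0.05), and of the 15 sterol members also 0, as for all genes tested (0% called). Adjusted p-values ran from 0.326 to 0.983 over the 31 members. Of the fatty acid members 12 of 16 had positive log2 fold changes with a branch median of 0.31, and of the sterol members 5 of 15 with a median of -0.17, beside a median of -0.02 and 47.3% positive over all genes tested. For 9 of the 16 fatty acid members every TSDP library lay above every Control library, beside 13.9% of all genes, and for 0 of them every TSDP library lay below, beside 7.65%. Of the sterol members 0 of 15 were without overlap in either direction, beside 21.6% of all genes. With upper-quartile scaling the fatty acid count was 7, beside 10.6% of all genes higher and 12.3% lower. At an unadjusted p under 0.05 there were 7 fatty acid members and 1 sterol member, all higher in TSDP, beside 8.6% of all genes higher and 4.75% lower.

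DESeq2, run as an alternative test, called Scd1, Elovl5, Fads2 and Dgat2 higher in TSDP, 4 of 16 fatty acid members, beside 2.98% of the genes to which it gave an adjusted p, or 3.38% in either direction. Their DESeq2 adjusted p-values were 0.00259, 0.00881, 0.0325 and 0.0035. In the edgeR and limma-voom fits none of the 4 passed, with adjusted p from 0.183 to 0.936 over those fits, the ones with the hepatocyte score or without 1 library included. DESeq2 called 0 sterol members.

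**Figure D1:**
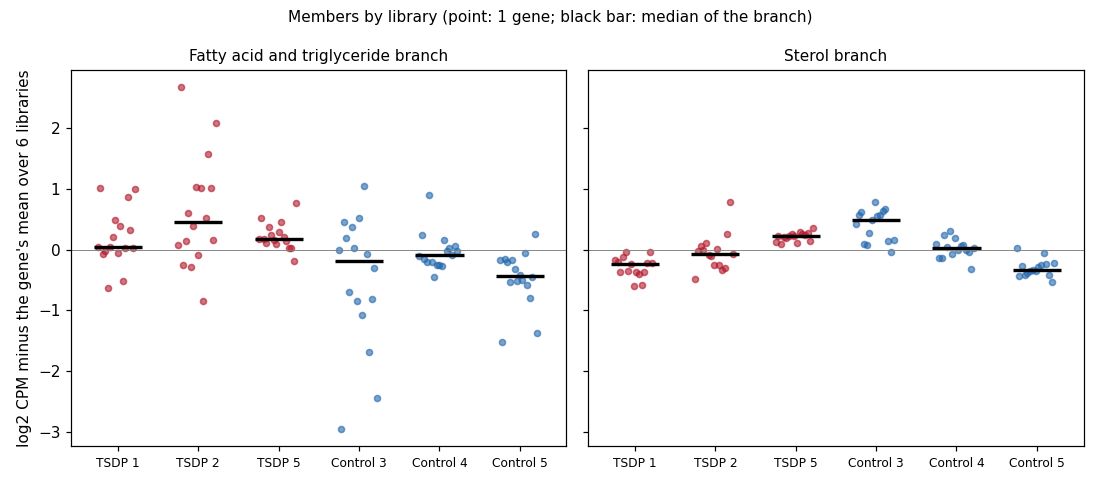
Each point is 1 member gene in 1 library, as log2 CPM minus that gene's mean over the 6 libraries, with TSDP libraries (red) left of Control libraries (blue) and a black bar at the branch median. The fatty acid members spread widely in TSDP 2 and Control 3, while the sterol members lay in a narrower band that was high in TSDP 5 and Control 3 and low in TSDP 1 and Control 5.

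Of the regulators of fat synthesis, Srebf1 (ENSMUSG00000020538), which encodes SREBP1, the factor that drives genes of fatty acid synthesis, was at 79.3, 81.3 and 87.2 CPM in TSDP 1, 2 and 5, against 76.8, 72.0 and 68.8 CPM in Control 3, 4 and 5. The groups did not overlap, but the difference was small, with a log2 fold change of 0.18 ± 0.10 (SE) and, by edgeR, an adjusted p of 0.461. Mlxipl (ENSMUSG00000005373), which encodes ChREBP, the factor that turns on lipogenic genes when carbohydrate is plentiful, was at 27.4, 86.7 and 19.4 CPM in TSDP 1, 2 and 5, against 1.70, 16.0 and 4.67 CPM in Control 3, 4 and 5. Its log2 fold change of 2.56 ± 0.95 (SE; adjusted p by edgeR = 0.356) was the largest of the 31 members in this fit, with a range of 1.61 to 3.80 leaving out 1 library. Without TSDP 2, and with the hepatocyte score in the fit, that of Dgat2 was larger. Mlxipl also varied most of the members inside the groups, by 4.46-fold among TSDP and 9.40-fold among Control libraries. Control 3, with the least hepatocyte RNA, had the lowest Mlxipl level, and TSDP 2, with the most, the highest.

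The members that make palmitate, other than Me1, overlapped between the groups. Acly (ENSMUSG00000020917), ATP citrate lyase, was at 242, 213 and 286 CPM in TSDP 1, 2 and 5, against 347, 228 and 227 CPM in Control 3, 4 and 5. Acaca (ENSMUSG00000020532), the cytosolic acetyl-CoA carboxylase that supplies malonyl-CoA for synthesis, was at 56.8, 63.8 and 62.3 CPM in TSDP 1, 2 and 5, against 65.9, 49.9 and 49.9 CPM in Control 3, 4 and 5. Fasn (ENSMUSG00000025153), fatty acid synthase, was at 160.1, 128 and 184 CPM in TSDP 1, 2 and 5, against 202, 136 and 139 CPM in Control 3, 4 and 5. In all 3 of these genes Control 3 was the highest library of the 6, and Control 4 and Control 5 were close to each other. Their log2 fold changes were -0.13 ± 0.21, 0.13 ± 0.14 and -0.02 ± 0.21 (SE), for Acly, Acaca and Fasn in that order. The sign for Acly and Fasn turned to positive without Control 3, at 0.08 and 0.16. Acacb (ENSMUSG00000042010), the carboxylase at the mitochondrial surface whose malonyl-CoA restrains fatty acid oxidation, was at 2.76, 6.56 and 5.58 CPM in TSDP 1, 2 and 5, against 2.62, 8.11 and 2.98 CPM in Control 3, 4 and 5, with no separation of the groups. Of the counts of Acaca and Acacb together, Acacb took 4.64%, 9.32% and 8.21% in TSDP 1, 2 and 5, against 3.83%, 14.0% and 5.63% in Control 3, 4 and 5 (two-sided exact permutation test, p = 0.9). Me1 (ENSMUSG00000032418), the cytosolic malic enzyme that supplies NADPH for synthesis, stood apart from these 4: it was at 72.6, 82.4 and 70.4 CPM in TSDP 1, 2 and 5, against 64.0, 46.4 and 50.3 CPM in Control 3, 4 and 5. Every TSDP library lay above every Control library for Me1, with a log2 fold change of 0.48 ± 0.15 (SE; adjusted p by edgeR = 0.334), and here Control 3 was the highest of the Control libraries.

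**Figure D2:**
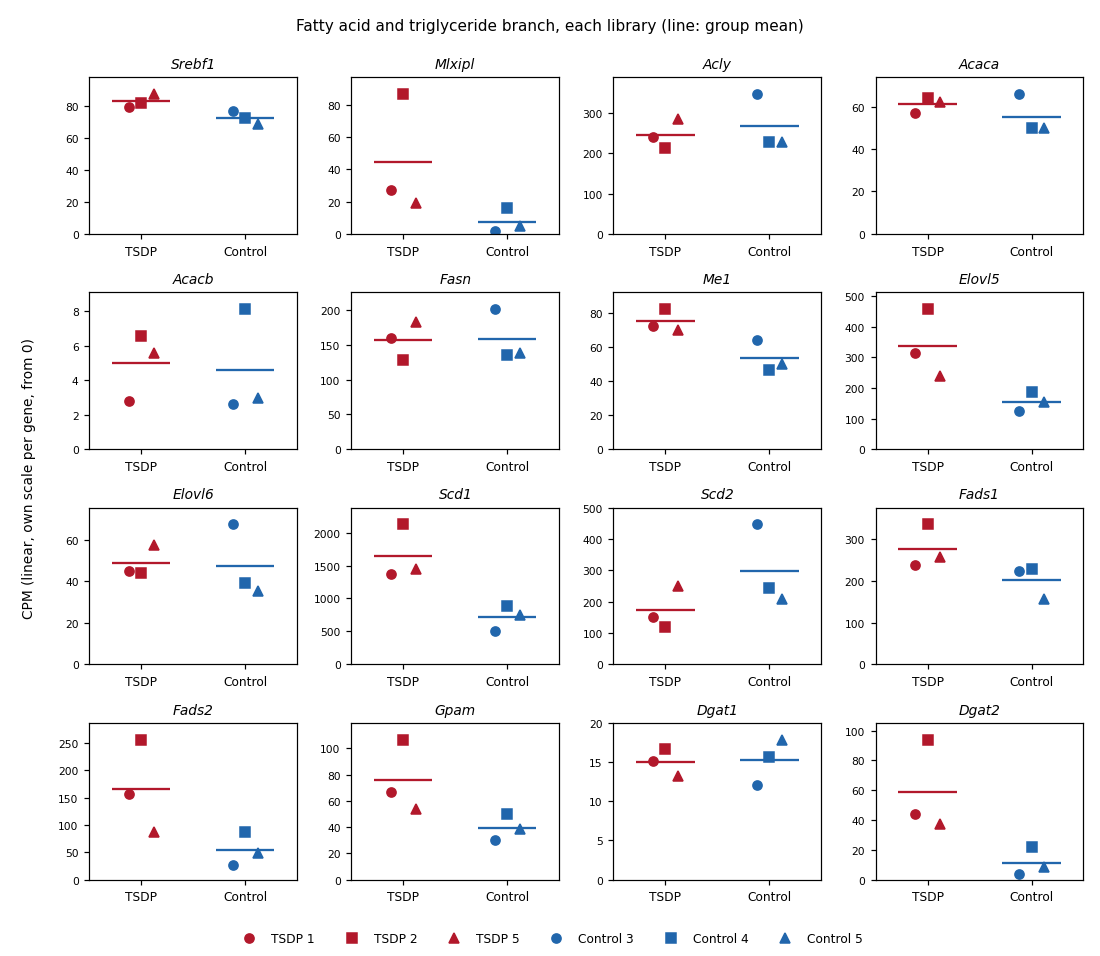
CPM of the 16 fatty acid and triglyceride members in each library on a linear axis from 0 with its own scale per gene, TSDP (red) left of Control (blue), the marker shape giving the replicate and the line the group mean. Scd1, Elovl5, Gpam, Dgat2, Mlxipl, Me1, Srebf1, Fads1 and Fads2 show no overlap of the groups, while Fasn, Acly, Acaca and Elovl6 have their highest library in Control 3.

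Chain elongation and desaturation held the members with the smallest p-values. Scd1 (ENSMUSG00000037071), the stearoyl-CoA desaturase of liver that makes oleate and palmitoleate, was at 1379, 2125 and 1441 CPM in TSDP 1, 2 and 5, against 501, 880.5 and 751 CPM in Control 3, 4 and 5. The groups did not overlap, and the means were 1648 ± 414 CPM in TSDP and 711 ± 193 CPM in Control (SD, n = 3 each), and the log2 fold change was 1.20 ± 0.30 (SE; by edgeR, adjusted p = 0.326). Scd2 (ENSMUSG00000025203), the desaturase isoform found mainly outside adult liver, went the other way in its values. It was at 151, 120.1 and 249 CPM in TSDP 1, 2 and 5, against 447, 242 and 208 CPM in Control 3, 4 and 5, with TSDP 5 inside the Control range and a log2 fold change of -0.79 ± 0.38 (SE; adjusted p by edgeR = 0.421). Scd1 shared 4.56% of its 50-base words with other annotated transcripts, and Scd2 was the gene it shared most with.

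Elovl5 (ENSMUSG00000032349), the elongase of polyunsaturated fatty acids, was at 313, 457 and 238 CPM in TSDP 1, 2 and 5, against 124, 186 and 155 CPM in Control 3, 4 and 5. Its levels did not overlap either, with a log2 fold change of 1.10 ± 0.28 (SE; adjusted p by edgeR = 0.326). Elovl6 (ENSMUSG00000041220), which lengthens palmitate to stearate, was at 45.2, 44.3 and 57.8 CPM in TSDP 1, 2 and 5, against 67.6, 39.4 and 35.2 CPM in Control 3, 4 and 5, with a log2 fold change of 0.04 ± 0.27 (SE). The groups overlapped for Elovl6, with Control 3 the highest library, and without Control 3 its log2 fold change was 0.36. Fads1 (ENSMUSG00000010663), the delta-5 desaturase of polyunsaturated fatty acids, was at 238, 335 and 257 CPM in TSDP 1, 2 and 5, against 222, 229 and 157 CPM in Control 3, 4 and 5. Fads2 (ENSMUSG00000024665), the delta-6 desaturase of the same pathway, was at 156, 257 and 87.1 CPM in TSDP 1, 2 and 5, against 26.7, 87.0 and 49.2 CPM in Control 3, 4 and 5. TSDP 5 and Control 4 were almost equal for Fads2. The groups overlapped for Fads2 with median-ratio scaling, with upper-quartile scaling and without the filter on low counts. They also overlapped for it when TSDP 1, TSDP 2, Control 3 or Control 5 was left out. Fads1 overlapped with upper-quartile scaling and without the filter. Their log2 fold changes were 0.44 ± 0.21 for Fads1 and 1.60 ± 0.55 for Fads2 (SE; adjusted p by edgeR = 0.425 and 0.337).

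In triglyceride assembly Gpam and Dgat2 stood higher in every TSDP library, and Dgat1 did not. Gpam (ENSMUSG00000024978), the mitochondrial acyltransferase that starts glycerolipid synthesis, was at 66.6, 107 and 53.8 CPM in TSDP 1, 2 and 5, against 30.2, 49.8 and 38.5 CPM in Control 3, 4 and 5. No library overlapped between the groups, and the log2 fold change was 0.93 ± 0.31 (SE; adjusted p by edgeR = 0.334). Dgat2 (ENSMUSG00000030747), the diacylglycerol acyltransferase that stores newly made fat in liver, was at 44.2, 94.1 and 37.6 CPM in TSDP 1, 2 and 5, against 4.01, 21.7 and 8.52 CPM in Control 3, 4 and 5. Its log2 fold change was 2.34 ± 0.68 (SE; adjusted p by edgeR = 0.331), while the Control libraries alone spanned 5.40-fold. Dgat1 (ENSMUSG00000022555), the unrelated enzyme that catalyses the same step in most tissues, was at 15.1, 16.6 and 13.2 CPM in TSDP 1, 2 and 5, against 12.0, 15.7 and 17.9 CPM in Control 3, 4 and 5. Dgat1 differed little between libraries, with a log2 fold change of -0.03 ± 0.19 (SE).

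Within the Scd and Dgat pairs every TSDP library gave a higher share to Scd1 and to Dgat2 than any Control library. Of the counts of Scd1 and Scd2 together, Scd1 took 90.1%, 94.7% and 85.3% in TSDP 1, 2 and 5, against 52.8%, 78.4% and 78.3% in Control 3, 4 and 5. The means were 90.0% ± 4.68 in TSDP and 69.9% ± 14.7 in Control (SD, n = 3 each; two-sided exact permutation test, p = 0.1, the lowest value possible with 3 libraries a group). Of the counts of Dgat1 and Dgat2 together, Dgat2 took 74.5%, 85.0% and 74.1% in TSDP 1, 2 and 5, against 25.0%, 58.1% and 32.3% in Control 3, 4 and 5. The means were 77.8% ± 6.18 in TSDP and 38.5% ± 17.4 in Control (SD, n = 3 each; two-sided exact permutation test, p = 0.1). Over the 3 shares tested, that of Acacb included, the Benjamini-Hochberg adjusted exact p was 0.15 for Scd1 and for Dgat2 and 0.9 for Acacb. Both shares were lowest in Control 3 and highest in TSDP 2, the libraries with the least and the most hepatocyte RNA. Leaving out 1 library at a time, the difference in means (TSDP minus Control) ran from 11.6 to 24.4 percentage points for Scd1 and from 32.7 to 49.2 for Dgat2.

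**Figure D3:**
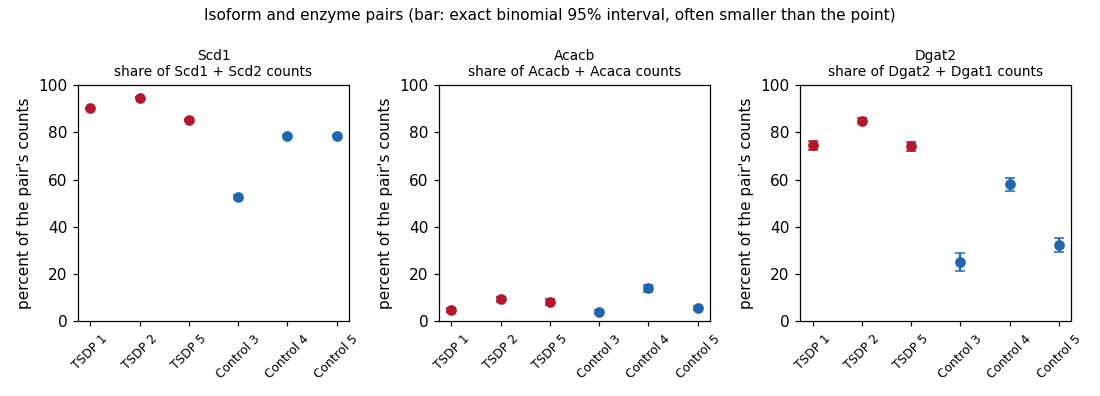
Share of the pair's counts, in percent, taken by Scd1, Acacb and Dgat2 in each library, TSDP (red) left of Control (blue), with exact binomial 95% intervals that cover counting error only. Scd1 and Dgat2 shares are higher in each TSDP library than in each Control library, and the Acacb shares overlap.

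Levels were compared between genes as CPM per kilobase of exon in GENCODE M21, which may not be the annotation used for counting. On this scale Scd1 was the most abundant of the 31 members, at 337 in TSDP and 145 in Control. Elovl5 followed in TSDP, at 95.4 in TSDP and 44.0 in Control, whereas Scd2 was second in Control, at 31.7 in TSDP and 54.7 in Control. Acacb was the lowest of the branch, at 0.516 in TSDP and 0.475 in Control. In the sterol branch Insig1 was at 34.1 in TSDP and 35.3 in Control, Hmgcs1 at 30.6 in TSDP and 34.8 in Control, and Fdps, the lowest of that branch, at 0.593 in TSDP and 0.816 in Control. Counts of some members are uncertain because annotated copies share their sequence: 30.4% of the 50-base words of Acaca recur in other transcripts, as do 22.9% of those of Me1 and 17.7% of those of Idi1.

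Several of the fatty acid members that separated the groups had the library order of the hepatocyte markers. From high to low, the summed hepatocyte markers ordered the libraries as TSDP 2, TSDP 1, TSDP 5, Control 4, Control 5 and Control 3. Mlxipl, Elovl5, Fads2, Gpam and Dgat2 had exactly this order, 5 of 16 fatty acid members, as had 0 of 15 sterol members, beside 5.76% of all genes tested. Only a gene higher in TSDP without overlap can have this order, so the 0 for the sterol members follows from their overlap. Of the 2429 genes higher in TSDP without overlap 1003 had this order, and of the 9 such fatty acid members 5 had it. Scd1 differed from it only in that TSDP 5 stood just above TSDP 1. Of the 16 fatty acid members 8 were lowest in Control 3, as were 0 of 15 sterol members, beside 26.1% of all genes.

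Without Control 3 the log2 fold changes of these members stayed positive, and none passed the edgeR test. They were then 2.08 for Mlxipl, 1.93 for Dgat2, 1.26 for Fads2, 0.95 for Elovl5, 0.98 for Scd1 and 0.75 for Gpam. Without TSDP 2, the library with the most hepatocyte RNA, they were 1.61 for Mlxipl, 1.81 for Dgat2, 1.13 for Fads2, 0.80 for Elovl5, 0.96 for Scd1 and 0.58 for Gpam, all smaller than with the 6 libraries. Without Control 3, for 10 of the 16 fatty acid members every TSDP library lay above both other Control libraries, beside 15.4% of all genes: Acaca and Elovl6 joined the 9, and Fads2 left them. The hepatocyte markers too still summed higher in every TSDP library than in Control 4 and 5. TSDP 5 and Control 4 had near equal sums, 19129 and 18655 CPM. Between these 2 libraries the ratio, TSDP 5 over Control 4, was 1.00 for Fads2, 1.08 for Gpam and 1.22 for Mlxipl. It was 1.28 for Elovl5, 1.64 for Scd1 and 1.74 for Dgat2, from 1 library on each side.

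The hepatocyte score, the mean log2 CPM of the 14 markers, was 9.65, 10.48 and 8.96 in TSDP 1, 2 and 5, against 1.13, 8.36 and 6.33 in Control 3, 4 and 5. On this log scale Control 3 lay far from the other libraries and so weighed heavily in a fit with the score. With the score as a covariate in the edgeR fit, the estimates of Mlxipl, Dgat2, Fads2, Scd1, Elovl5 and Gpam moved toward 0. The log2 fold change was then 0.82 ± 0.67 for Mlxipl, 1.05 ± 0.44 for Dgat2 and 0.56 ± 0.44 for Fads2 (SE). For Scd1 it was 0.67 ± 0.27, for Elovl5 0.65 ± 0.32 and for Gpam 0.40 ± 0.32 (SE). All of these stayed positive, and none passed the test. Me1 and Elovl6 instead moved away from 0, to 0.73 ± 0.17 and 0.62 ± 0.22 (SE), and Me1 had the smallest adjusted p of the 31 members in this fit, 0.655 by edgeR. Scd2 came to -0.07 ± 0.34 (SE). The fatty acid median was 0.41 with 13 of 16 members positive, and the sterol median 0.20 with 13 of 15 positive, beside -0.0019 over all genes, and 0 genes were called. The hepatocyte score was on average higher in TSDP, and with 6 libraries treatment and the score can be told apart only in part. Whether the hepatocyte RNA came from host liver or from the tumour cells was not tested.

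**Figure D4:**
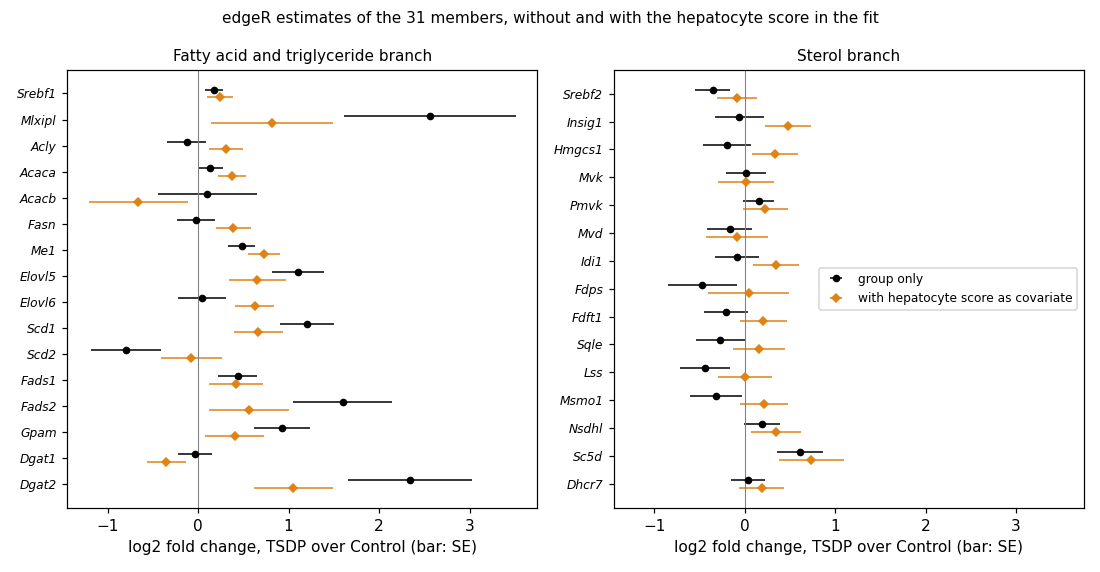
edgeR log2 fold changes (TSDP over Control) of the 31 members with SE bars, from the fit with the group only (black circles) and with the hepatocyte score added (orange diamonds). Mlxipl, Dgat2 and Fads2 lie closer to 0 with the score in the fit, Me1 lies farther from it, and most sterol members lie on the positive side.

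The 15 sterol members varied between libraries together, with high and low libraries in both groups. In TSDP 5 all 15 members lay above their own mean over the 6 libraries, and in Control 3 14 of 15 did. In TSDP 1 0 of 15 lay above it, in Control 5 1 of 15, in TSDP 2 5 and in Control 4 8. Over all genes tested 45.3% to 55.1% lay above their mean in each library. Of the 13 other sterol genes described below 7, 9 and 10 lay above theirs in TSDP 1, 2 and 5. In Control 3, 4 and 5 these counts were 8, 4 and 2. The pattern of the members was thus not shared by all sterol genes. Of the fatty acid members, Acly, Fasn, Elovl6 and Scd2 also had Control 3 as the highest library and TSDP 5 next. The median deviation of the branch was -0.24, -0.08 and 0.23 log2 units in TSDP 1, 2 and 5, against 0.48, 0.02 and -0.34 in Control 3, 4 and 5. The branch median log2 fold change was -0.17, and 0.04 without Control 3. Proliferation markers (Mki67, Top2a and Pcna summed) were at 1166 CPM, 740.0 CPM and 1210.3 CPM in TSDP 1, 2 and 5, against 1682 CPM, 1075 CPM and 871 CPM in Control 3, 4 and 5. They too were highest in Control 3 and, among TSDP, in TSDP 5. In TSDP 1, where 0 of 15 sterol members lay above their mean, they were close to TSDP 5, and they were lowest in TSDP 2. The part of proliferation in the sterol pattern was not tested.

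Of the regulators, Srebf2 (ENSMUSG00000022463), which encodes SREBP2, the main activator of sterol synthesis genes, was at 133, 106 and 161 CPM in TSDP 1, 2 and 5, against 198, 159 and 151 CPM in Control 3, 4 and 5. Insig1 (ENSMUSG00000045294), which holds the SREBP escort SCAP in the endoplasmic reticulum and is itself an SREBP target, was at 90.9, 103 and 123 CPM in TSDP 1, 2 and 5, against 155, 94.8 and 77.9 CPM in Control 3, 4 and 5. Control 3 was the highest library for both, and TSDP 5 the second. The log2 fold change of Srebf2 was -0.35 ± 0.19 (SE; adjusted p by edgeR = 0.458) and that of Insig1 -0.06 ± 0.27 (SE; adjusted p by edgeR = 0.936).

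In the mevalonate part, Hmgcs1 (ENSMUSG00000093930), the cytosolic synthase that makes HMG-CoA, was at 113, 152 and 156 CPM in TSDP 1, 2 and 5, against 225, 133 and 122 CPM in Control 3, 4 and 5. Its groups overlapped throughout, with a log2 fold change of -0.19 ± 0.27 (SE) that turned to 0.11 without Control 3. Mevalonate kinase Mvk (ENSMUSG00000041939) was at 8.78, 9.50 and 11.0 CPM in TSDP 1, 2 and 5, against 10.2, 11.3 and 7.18 CPM in Control 3, 4 and 5. Phosphomevalonate kinase Pmvk (ENSMUSG00000027952) was at 13.9, 15.6 and 16.5 CPM in TSDP 1, 2 and 5, against 15.1, 14.8 and 11.0 CPM in Control 3, 4 and 5. Mvd (ENSMUSG00000006517), the decarboxylase that yields isopentenyl diphosphate, was at 8.81, 10.5 and 13.2 CPM in TSDP 1, 2 and 5, against 13.5, 13.9 and 8.82 CPM in Control 3, 4 and 5. These 3 were counted at low levels and overlapped between the groups, with log2 fold changes of 0.01 ± 0.22 for Mvk, 0.16 ± 0.17 for Pmvk and -0.17 ± 0.25 for Mvd (SE). Idi1 (ENSMUSG00000058258), isopentenyl diphosphate isomerase, was at 29.3, 32.3 and 41.4 CPM in TSDP 1, 2 and 5, against 48.3, 32.9 and 27.2 CPM in Control 3, 4 and 5. Fdps (ENSMUSG00000059743), farnesyl diphosphate synthase, was at 1.83, 2.36 and 3.29 CPM in TSDP 1, 2 and 5, against 4.88, 3.23 and 2.19 CPM in Control 3, 4 and 5. The Fdps counts are uncertain, since 1124 exonic bases overlap the annotated gene Gm43738 on the same strand and 26.2% of its 50-base words recur in other transcripts.

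The squalene steps also had Control 3 and TSDP 5 as their highest libraries. Fdft1 (ENSMUSG00000021273), squalene synthase, was at 57.7, 75.5 and 80.5 CPM in TSDP 1, 2 and 5, against 109.7, 74.1 and 61.4 CPM in Control 3, 4 and 5. Sqle (ENSMUSG00000022351), squalene epoxidase, a rate-limiting step after mevalonate, was at 86.5, 96.6 and 140.0 CPM in TSDP 1, 2 and 5, against 171, 119.8 and 95.8 CPM in Control 3, 4 and 5. Lss (ENSMUSG00000033105), which folds the epoxide into lanosterol, was at 29.8, 35.5 and 53.7 CPM in TSDP 1, 2 and 5, against 69.7, 47.2 and 43.1 CPM in Control 3, 4 and 5. In each of the 3 the order began with Control 3 and TSDP 5 and ended with TSDP 1, and the log2 fold changes were -0.21 ± 0.24, -0.27 ± 0.27 and -0.44 ± 0.28 (SE). The exons of Fdft1 overlap those of Ctsb on the other strand over 774 bases, and the strand setting of the counting is not given in the sources used here.

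Past lanosterol, Msmo1 (ENSMUSG00000031604), the C4-methyl sterol oxidase, was at 127, 133 and 194 CPM in TSDP 1, 2 and 5, against 260.0, 163 and 139 CPM in Control 3, 4 and 5, with a log2 fold change of -0.32 ± 0.28 (SE). Nsdhl (ENSMUSG00000031349), the dehydrogenase of the same demethylation, was at 28.4, 39.4 and 39.6 CPM in TSDP 1, 2 and 5, against 36.2, 32.2 and 24.7 CPM in Control 3, 4 and 5. Dhcr7 (ENSMUSG00000058454), which makes cholesterol from 7-dehydrocholesterol, was at 46.4, 51.3 and 69.2 CPM in TSDP 1, 2 and 5, against 60.3, 55.1 and 46.4 CPM in Control 3, 4 and 5. Nsdhl and Dhcr7 had log2 fold changes of 0.19 ± 0.20 and 0.04 ± 0.18 (SE), within the spread between libraries. Sc5d (ENSMUSG00000032018), the desaturase that forms 7-dehydrocholesterol, was the sterol member with the smallest p. It was at 97.3, 174 and 111 CPM in TSDP 1, 2 and 5, against 98.1, 80.7 and 69.0 CPM in Control 3, 4 and 5, with a log2 fold change of 0.62 ± 0.25 (SE; adjusted p by edgeR = 0.373), and TSDP 1 lay just below Control 3. Without TSDP 2, the highest library, its log2 fold change was 0.32.

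**Figure D5:**
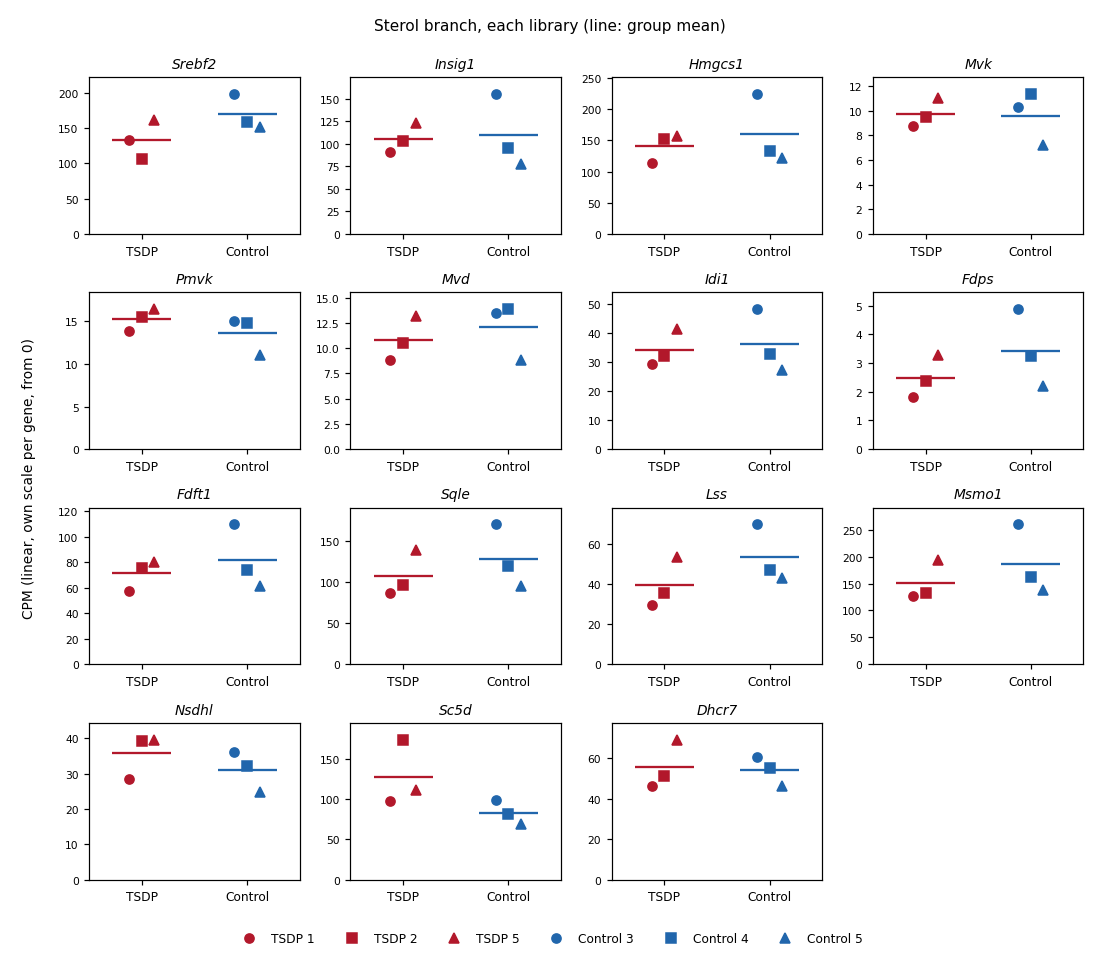
CPM of the 15 sterol members in each library on a linear axis from 0 with its own scale per gene, TSDP (red) left of Control (blue), the marker shape giving the replicate and the line the group mean. The groups overlap in every panel, Control 3 is the highest library in 9 of the 15 (26.9% of all genes) and TSDP 1 the lowest in 7 (10.9%).

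Start-site windows were examined because the sterol members varied together. RefSeq windows of GRCm38.p6, from 250 bases before to 50 after a start, were found for 12 of 15 sterol members (15 windows) and 11 of 16 fatty acid members (16 windows). They were searched on both strands for CCAAT, the box bound by NF-Y, a partner of SREBP, for TCACNCCAC, a sterol regulatory element form, and for CACGTG, an E-box. CCAAT occurred in 12 of the 15 sterol windows, at least 1 for each of the 12 genes, and in 9 of the 16 fatty acid windows, beside 37.4% of all 32851 windows. TCACNCCAC occurred in 1 sterol window, of Hmgcs1, and in 1 fatty acid window, of Mlxipl, beside 1.24% of all. CACGTG occurred in 3 sterol windows, of Insig1, Sc5d and Dhcr7, and in 2 fatty acid windows, of Elovl5 and Mlxipl, beside 7.15% of all. A match is a description of these letters and not a measured binding site. The windows of Hmgcs1 (chr13:119690101-119690400, plus strand), Insig1 (chr5:28071162-28071461, plus strand) and Msmo1 (chr8:64733529-64733828, minus strand) are shown for the sterol block, and those of Elovl5 (chr9:77917115-77917414, plus strand) and Fasn (chr11:120824498-120824797, minus strand) for a fatty acid member that separated the groups and one that did not, with all motif matches in capitals (a CCAAT on the other strand reads ATTGG).
Hmgcs1: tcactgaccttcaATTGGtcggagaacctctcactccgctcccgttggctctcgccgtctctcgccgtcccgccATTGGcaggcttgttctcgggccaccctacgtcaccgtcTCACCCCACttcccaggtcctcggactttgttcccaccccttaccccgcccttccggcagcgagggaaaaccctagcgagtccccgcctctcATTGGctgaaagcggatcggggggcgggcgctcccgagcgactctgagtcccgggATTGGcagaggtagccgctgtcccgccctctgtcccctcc
Insig1: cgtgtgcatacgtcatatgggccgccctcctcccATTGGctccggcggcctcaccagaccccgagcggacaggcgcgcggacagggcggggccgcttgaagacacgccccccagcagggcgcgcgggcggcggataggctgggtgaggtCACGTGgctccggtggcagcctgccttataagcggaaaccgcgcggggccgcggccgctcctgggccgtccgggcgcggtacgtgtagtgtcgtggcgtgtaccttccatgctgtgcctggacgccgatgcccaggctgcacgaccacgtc
Msmo1: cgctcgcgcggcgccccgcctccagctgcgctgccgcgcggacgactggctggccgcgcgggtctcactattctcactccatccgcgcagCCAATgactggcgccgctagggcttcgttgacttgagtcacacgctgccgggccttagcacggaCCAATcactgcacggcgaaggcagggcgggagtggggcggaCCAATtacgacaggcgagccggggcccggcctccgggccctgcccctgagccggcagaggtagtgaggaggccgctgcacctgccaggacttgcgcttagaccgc
Elovl5: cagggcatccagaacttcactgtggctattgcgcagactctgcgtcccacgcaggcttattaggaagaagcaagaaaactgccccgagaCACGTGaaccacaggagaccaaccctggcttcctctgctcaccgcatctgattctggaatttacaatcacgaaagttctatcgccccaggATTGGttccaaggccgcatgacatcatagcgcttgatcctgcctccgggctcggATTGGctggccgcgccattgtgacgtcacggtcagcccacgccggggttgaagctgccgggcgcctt
Fasn: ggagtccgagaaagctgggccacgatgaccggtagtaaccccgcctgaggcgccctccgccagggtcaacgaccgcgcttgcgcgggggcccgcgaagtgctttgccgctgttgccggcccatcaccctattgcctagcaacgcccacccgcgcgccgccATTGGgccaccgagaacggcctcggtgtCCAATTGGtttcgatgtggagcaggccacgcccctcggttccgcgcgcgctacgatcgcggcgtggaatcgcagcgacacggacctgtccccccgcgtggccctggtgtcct
In the Fasn window 2 of the CCAAT matches, on opposite strands, overlap in the run CCAATTGG. The Hmgcs1 window holds 4 CCAAT matches and the sterol regulatory element form TCACCCCAC, and the Insig1 window 1 CCAAT and 1 CACGTG. Elovl5, whose levels separated the groups, and Fasn, whose levels did not, hold 2 and 3 CCAAT matches.

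Other genes of the pathways, 39 in 3 lists, were measured as well. Of 20 other genes of fatty acid synthesis and esterification 0 passed the edgeR test. DESeq2 called 3 of the 20 higher, beside 2.98% of the genes to which it gave an adjusted p. Of the 20, 16 had positive log2 fold changes with a median of 0.33, beside 47.3% positive over all genes tested. Without overlap 12 were higher in TSDP and 0 lower, beside 13.9% and 7.65% of all genes. The 3 with the smallest edgeR p were Acsl1, Elovl3 and Agpat2, which were also the 3 called by DESeq2 (adjusted p 1.59e-06, 0.0193 and 0.00751). Acsl1, the main long-chain acyl-CoA synthetase of liver, was at 213, 424 and 194 CPM in TSDP 1, 2 and 5, against 56.4, 83.4 and 50.2 CPM in Control 3, 4 and 5, a log2 fold change of 2.12 ± 0.38 (SE; adjusted p by edgeR = 0.326). Unlike the members that followed the hepatocyte markers, its lowest library was Control 5. Elovl3, an elongase of saturated fatty acids, was at 56.0, 71.4 and 30.8 CPM in TSDP 1, 2 and 5, against 0, 2.07 and 1.37 CPM in Control 3, 4 and 5. Its libraries had the order of the hepatocyte markers. Agpat2, an acyltransferase of the step after Gpam, was at 55.5, 89.3 and 31.8 CPM in TSDP 1, 2 and 5, against 7.66, 26.4 and 11.7 CPM in Control 3, 4 and 5, in the order of the hepatocyte markers.

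Of 13 other sterol genes 0 passed the edgeR test. DESeq2 called 1 of the 13 higher, Tm7sf2 (adjusted p 0.0348), beside 2.98% of the genes to which it gave an adjusted p. Of the 13, 9 had positive log2 fold changes with a median of 0.06, beside 47.3% positive over all genes tested. Higher in TSDP without overlap were 2 of 13, near the share of 13.9% over all genes. Those 2 were Tm7sf2, a sterol C14-reductase, at 13.3, 21.5 and 13.2 CPM in TSDP 1, 2 and 5, against 7.53, 10.1 and 7.30 CPM in Control 3, 4 and 5, and Ebp, the sterol isomerase, at 53.7, 89.6 and 57.6 CPM in TSDP 1, 2 and 5, against 36.2, 46.0 and 32.9 CPM in Control 3, 4 and 5. The values of both were highest in TSDP 2 and lowest in Control 5, an order unlike that of Sqle or Msmo1. Of 6 genes of sterol sensing 0 passed the edgeR test. DESeq2 called 1 of the 6 higher, Nr1h3 (adjusted p 0.0107), beside the same 2.98%. Of the 6, 3 had positive log2 fold changes, beside 47.3% over all genes tested. Without overlap 3 were higher and 1, Nr1h2, lower, beside 13.9% and 7.65% of all genes. Nr1h3, the oxysterol receptor LXR-alpha, which induces Srebf1 and Scd1, was at 27.0, 37.1 and 23.4 CPM in TSDP 1, 2 and 5, against 7.66, 14.6 and 15.1 CPM in Control 3, 4 and 5. Insig2, the second INSIG protein and the form that predominates in fasted liver, was at 202, 313 and 186 CPM in TSDP 1, 2 and 5, against 116, 163 and 122 CPM in Control 3, 4 and 5. Scap, the SREBP escort, was at 46.1, 55.5 and 40.8 CPM in TSDP 1, 2 and 5, against 30.4, 39.7 and 34.5 CPM in Control 3, 4 and 5. All 3 were highest in TSDP 2 and lowest in Control 3, as the hepatocyte markers were.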

How the data were processed

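The labels' protocols name an RNeasy kit for extracting the tumour RNA and the KAPA mRNA HyperPrep kit for the libraries. Tools listed in the submitters' processing notes are Trimmomatic 0.38, HISAT2 2.1.0, featureCounts 2.0.0, CASAVA, FastQC and MultiQC. Build, annotation and strand setting were not given in the sources used here. The authors deposited raw read counts for 55536 Ensembl genes and, in another table, a normalized signal. From the values, that signal is the count over 1 constant per library; its table supplied the gene symbols.

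Groups came from the sample titles, no batch is labelled, and nothing says more of the replicates, so the spread behind each p-value, between these libraries, may be technical. The test was edgeR 4.0.16 in R 4.3.3 (TMM, filterByExpr with minimum count 10, glmQLFit, glmQLFTest, group only, Benjamini-Hochberg over 17423 genes at 0.05). SE is the absolute log2 fold change over the root of F. DESeq2 1.42.0, limma 3.58.1 (voom), other scalings, no filter, bias-adjusted quasi-likelihood, the hepatocyte score and leaving out each library were alternatives. Log2 CPM used a prior count of 2. The steps were tested on simulated data. All 31 members were named, and of each other list the 3 genes with the smallest p, of which 1 is not reported here. Members and lists were chosen with earlier results of these data known. Exonic length, overlaps and shared 50-base words came from GENCODE M21, and the words were compared among annotated transcripts.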

Additional observations from a re-analysis of the deposited data

How the results depend on the processing

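No paired analysis was possible because the groups share only replicate number 5. DESeq2 called 620 genes and 4 fatty acid members, and the fit without a filter on low counts 1 gene, against 0 in the edgeR fit, which had 2326 genes at an unadjusted p under 0.05; limma-voom also called 0, with 2646. The fatty acid median stayed within 0.19 to 0.47 under all 13 alternatives. The sterol median came to 0.20 with the hepatocyte score as covariate and ran from -0.37 to 0.04 leaving out 1 library. Over 31 members and 13 alternatives 37 of 403 log2 fold changes turned sign; the cause was not tested. With the hepatocyte score they were 0.31 for Acly, -0.66 for Acacb, 0.39 for Fasn, 0.48 for Insig1, 0.33 for Hmgcs1, 0.35 for Idi1, 0.0466 for Fdps, 0.20 for Fdft1, 0.16 for Sqle, 0.0043 for Lss and 0.21 for Msmo1. With upper-quartile factors they were -0.018 for Elovl6, -0.0535 for Mvk and -0.031 for Dhcr7, and without the filter -0.0062 for Mvk. Leaving out 1 library, the ranges that crossed 0 were -0.25 to 0.0847 for Acly, -0.19 to 0.82 for Acacb, -0.15 to 0.16 for Fasn, -0.14 to 0.36 for Elovl6, -0.19 to 0.0731 for Dgat1, -0.27 to 0.26 for Insig1, -0.37 to 0.11 for Hmgcs1, -0.18 to 0.16 for Mvk, -0.27 to 0.16 for Idi1, -0.39 to 0.0397 for Fdft1 and -0.15 to 0.15 for Dhcr7. The number of fatty acid members higher in every TSDP library ran from 7 to 10 of 16, beside 8.25% to 22.8% of all genes. That of sterol members without overlap ran from 0 to 3 of 15, beside 8.25% to 22.8% of all genes higher and 6.7% to 19.2% lower. The sterol count of 3 was 3 higher without TSDP 1, beside 15.4% of all genes, and 3 lower without TSDP 5, beside 15.3%. These scalings and left-out libraries were chosen after seeing the data. With 3 libraries a group, one of them nearly free of hepatocyte RNA, a p above the threshold does not show that levels were equal.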
